A study of Mus musculus with 12 samples.

Results

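The B7 and CD28 families are the ligands and receptors of T cell costimulation and of its inhibitory checkpoints. The 10 genes described here, of 35999 gene rows in the deposited table, were taken by name: the 5 receptors Cd28, Icos, Ctla4, Pdcd1 and Btla and the 5 ligands Cd80, Cd86, Icosl, Cd274 and Pdcd1lg2. They were measured by RNA sequencing of 12 tumours grown under the skin from AB1-HA, a mesothelioma line of the mouse engineered to express an influenza haemagglutinin (HA). All mice were male BALB/c animals aged 8 to 10 weeks. In the anti-CD4 group (6 tumours) they received 100 µg of an anti-CD4 antibody at each dosing, and in the PBS group (6 tumours) they received PBS. Dosing days were -3, 0 and 7, with inoculation at day 0, and tumours were taken at day 9. An antibody against CD4 removes helper and regulatory T cells alike, and some mouse dendritic cells also carry CD4, so the treatment is not specific to either T cell subset. The labels tie no tumour to an individual mouse, and p-values measure the spread between tumours.

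CD28 on T cells binds CD80 (B7-1) and CD86 (B7-2) on antigen-presenting cells and gives the costimulatory signal that accompanies antigen recognition. CTLA-4 binds the same ligands with higher affinity and opposes CD28, and it is carried constitutively by regulatory T cells. ICOS, which appears on activated T cells and is prominent on follicular helper and regulatory T cells, binds ICOS ligand. PD-1, the product of Pdcd1, is an inhibitory receptor with the ligands PD-L1 (Cd274) and PD-L2 (Pdcd1lg2). BTLA is an inhibitory receptor of lymphocytes and dendritic cells, and its ligand HVEM, encoded by Tnfrsf14, belongs to the TNF receptor superfamily rather than to the B7 family.

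Total counts ran from 30.75 to 41.93 M in the PBS tumours and from 34.45 to 62.06 M in the anti-CD4 tumours. Levels are given as CPM, the count divided by the library total after TMM scaling, and differences as log2 fold changes of anti-CD4 against PBS from edgeR's quasi-likelihood test. Cd4, which encodes the antigen of the antibody, averaged 6.31 ± 2.34 CPM under PBS against 1.31 ± 0.498 CPM under anti-CD4 (SD, n = 6 each). The groups did not overlap, so Cd4 separated the libraries by their group labels. It does not check the tumour numbers within a group. Markers of the cell types that can carry these genes were measured. All 10 T cell markers, all 10 macrophage markers and all 7 conventional dendritic cell markers looked at had enough counts to be tested, as did 5 of 6 B cell markers. Of 7 mesothelial and epithelial markers 4 were tested and Upk3b, Krt18 and Krt19 were too low, while Msln, the mesothelin gene, averaged 126 ± 17.5 CPM under PBS against 122 ± 23.9 CPM under anti-CD4 (SD, n = 6 each). Anti-CD4 tumours 3 and 4 stood apart from the other anti-CD4 tumours in T cell genes, with Cd3e at 4.81 and 8.1 CPM against 0.663 to 2.82 CPM in the others and 4.76 to 13.4 CPM in PBS tumours. They stood apart also in Ptprc, a gene of leukocytes in general, at 112 and 120 CPM against 57.8 to 68.3 CPM in the others. Cd4 was at 0.618 CPM in anti-CD4 3 and 2.13 CPM in anti-CD4 4, below every PBS tumour. Results that rest on anti-CD4 3 and 4 are given with and without both.

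Of the 10 genes, 9 had enough counts to be tested, and Icos was the 1 called lower at an adjusted p under 0.05. None was called higher, and Cd80 was the 1 member above 0 with an unadjusted edgeR p under 0.05. Across all 17940 genes tested, 2.33% were called lower and 2.95% higher. In 8 of the 9 genes the log2 fold change of anti-CD4 against PBS was negative, while 50.1% of all genes had a negative value, and Cd80 was the exception. Unadjusted edgeR p-values under 0.05 were reached by 3 of 4 tested receptors and 4 of 5 ligands, beside 28% of all genes tested (14.7% lower and 13.4% higher). The median log2 fold change was -1.17 over the 4 receptors and -0.53 over the 5 ligands, beside 0 over all genes tested. In a whole tumour, fewer cells of a type and less RNA per cell cannot be told apart.

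**Figure D1:**
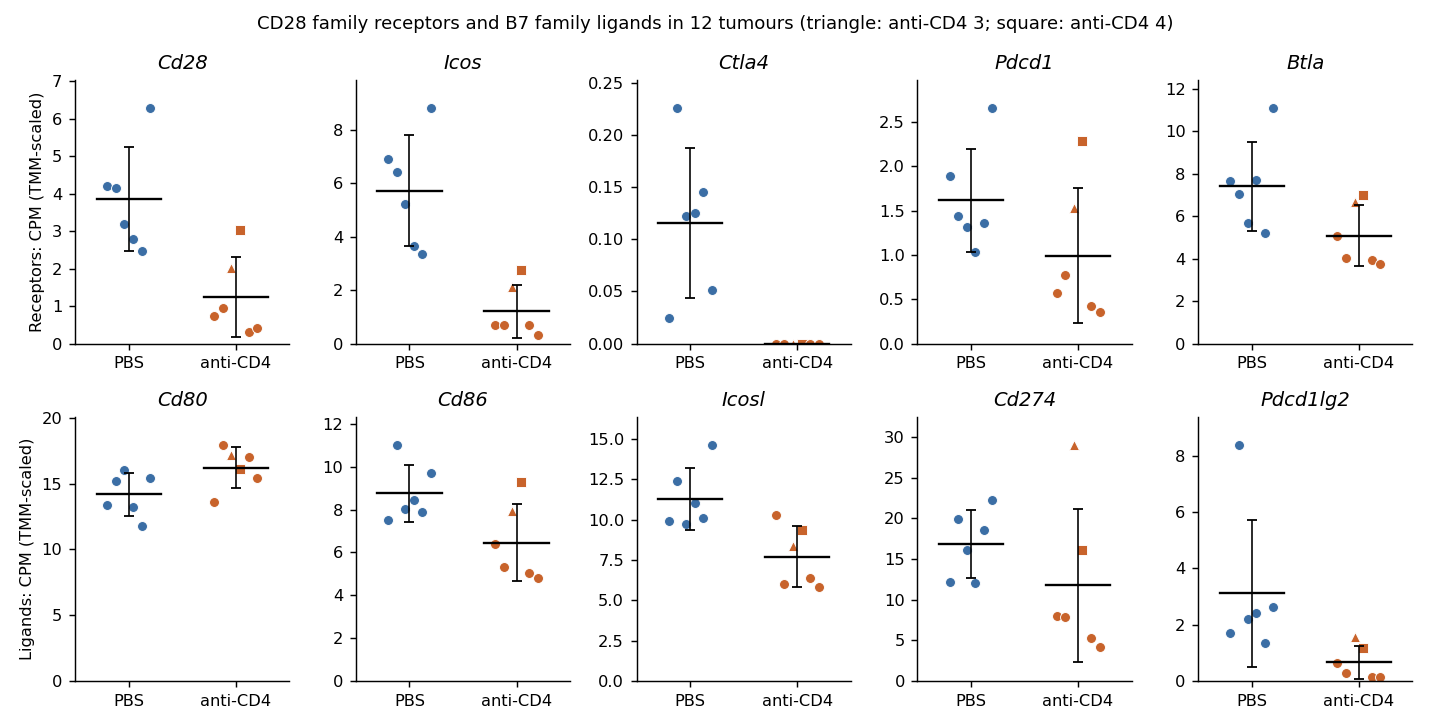
CPM (vertical axes, from 0) of each receptor (upper row) and ligand (lower row) in the 6 PBS (blue) and 6 anti-CD4 (orange) tumours, with group means and SD bars; triangles mark anti-CD4 3 and squares anti-CD4 4. No anti-CD4 point of Icos reaches the PBS points, anti-CD4 3 and 4 lie above the other anti-CD4 tumours in Cd28, Icos, Pdcd1, Btla, Cd86, Cd274 and Pdcd1lg2, and Ctla4 is drawn from rounded counts of at most 8 a tumour.

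Among the 4 tested receptors, the costimulatory Icos and Cd28 had the largest fold changes. Icos lies on chromosome 1 from 60977927 to 61000320 (GRCm38, plus strand). It was at 6.9, 6.43, 5.21, 3.66, 3.34 and 8.82 CPM in PBS tumours 1 to 6. In anti-CD4 tumours 1 to 6 it was at 0.692, 0.678, 2.12, 2.75, 0.68 and 0.306 CPM. The highest anti-CD4 tumour, number 4, thus lay below the lowest PBS tumour, number 5, and the groups did not overlap, as held in this direction for 1.19% of all genes tested (every anti-CD4 tumour was higher in 1.93%). Icos fell 4.76-fold, a log2 fold change of -2.25 (SE 0.481, 95% interval -3.29 to -1.21, edgeR adjusted p = 0.0311). The call was lost, at unchanged direction, in 6 of the 12 fits that leave out a tumour, namely those without PBS 2, 3 or 6 or anti-CD4 2, 5 or 6, where the edgeR adjusted p ran from 0.0528 to 0.0867. It was lost too once the log2 library total entered the model (log2 fold change -2.29, SE 0.65, adjusted p = 0.248).

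Cd28 lies upstream in the same cluster on chromosome 1, from 60716800 to 60773359, with Ctla4 between it and Icos. Its level in PBS tumours 1 to 6 was 4.2, 4.15, 3.2, 2.78, 2.47 and 6.29 CPM. Under anti-CD4, tumours 1 to 6 were at 0.749, 0.944, 2.02, 3.04, 0.297 and 0.408 CPM. Anti-CD4 4 reached into the PBS range and the other 5 anti-CD4 tumours lay below every PBS tumour. The log2 fold change was -1.63 (SE 0.497, 95% interval -2.71 to -0.56), and Cd28 did not pass (edgeR adjusted p = 0.0679). DESeq2 called it (adjusted p = 0.0246), as did edgeR without anti-CD4 4 (log2 fold change -2.15, adjusted p = 0.0287), its highest anti-CD4 tumour. Of the 22 alternative fits only 4 called Cd28, and with the library total in the model the edgeR adjusted p was 0.375.

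Ctla4, between Cd28 and Icos on chromosome 1 from 60887000 to 60915832, was too low to be tested. Its estimated counts in PBS tumours 1 to 6 were 1.253, 7.776, 4.859, 3.908, 4.533 and 1.764, and they were 0 in 5 anti-CD4 tumours and 0.1084 in anti-CD4 3. The summed counts were 24.09 and 0.1084. Every PBS tumour had more than any anti-CD4 tumour, at a depth where 3 counts is the limit that a count of 0 allows in each tumour, so only the PBS tumours 2 to 5 lay above that limit. In the fit with no filter on low counts, where 27373 genes were tested, edgeR gave an adjusted p = 0.0246. DESeq2 gave it no adjusted p (unadjusted p = 7.17e-05). These numbers are lower than those of any other member by an order that its neighbours Cd28 (85 to 246 counts in PBS tumours) and Icos (115 to 344.9) do not share. All 6 PBS values of Ctla4 were not whole, although none of the 2327 words of 31 bases in its 3 GENCODE transcripts occurs in a transcript of another gene on either strand. Pdcd1, Btla and Pdcd1lg2, whose words are likewise not shared, were whole in all 12 tumours, while Cd28 and Icos, also with no shared word, were not whole in 3 tumours each. Which transcripts the deposited Ctla4 row sums was not given in the sources used here, and its level is not read as the level of Ctla4 mRNA.

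Pdcd1 and Btla, the inhibitory receptors with enough counts for a test, had smaller fold changes than Icos and Cd28. Pdcd1, on chromosome 1 from 94038305 to 94052553 (minus strand), was at 1.89, 1.44, 1.32, 1.03, 1.36 and 2.66 CPM in PBS tumours 1 to 6. The anti-CD4 tumours 1 to 6 were at 0.576, 0.775, 1.53, 2.29, 0.425 and 0.357 CPM. Anti-CD4 3 and 4 lay inside the PBS range and the other 4 lay below it. The log2 fold change was -0.71 (SE 0.425, 95% interval -1.62 to 0.2, edgeR adjusted p = 0.284), so Pdcd1 did not pass, with an interval that spans 0.325 to 1.15 times the PBS level. Btla, on chromosome 16 from 45224315 to 45257670, averaged 7.41 ± 2.09 CPM under PBS (lowest 5.2, median 7.37, highest 11.1) against 5.09 ± 1.45 CPM under anti-CD4 (lowest 3.76, median 4.54, highest 7.02), as mean ± SD, n = 6 each. Again anti-CD4 3 and 4 were inside the PBS range and the other 4 below it. The log2 fold change of Btla was -0.55 (SE 0.207, edgeR adjusted p = 0.111), and it did not pass.

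**Figure D2:**
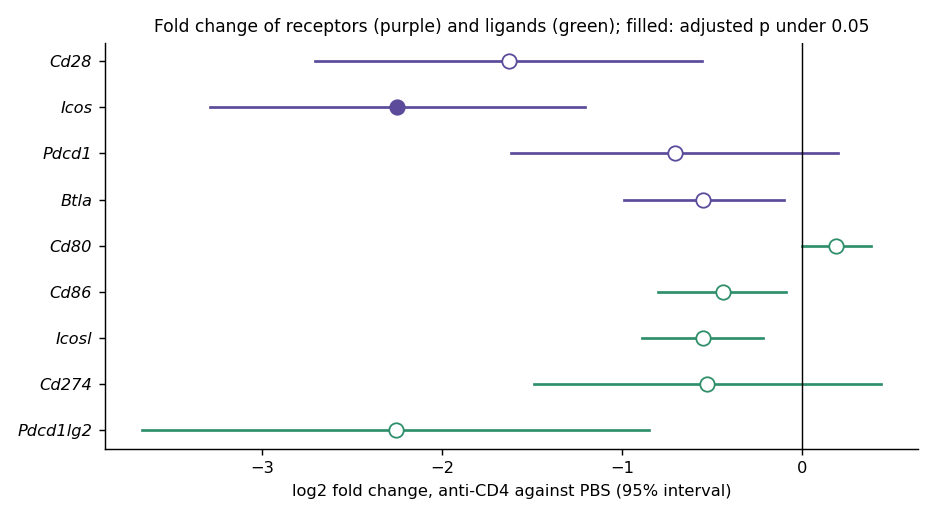
Log2 fold change of anti-CD4 against PBS (horizontal axis) with its 95% interval for the 4 tested receptors (purple) and the 5 ligands (green); the filled point is called by edgeR. Icos (-2.25) is the 1 filled point, Pdcd1lg2 (-2.26) has as low a value with a wider interval, and Cd80 (0.19) is the 1 point above 0.

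The ligands of CD28 lay in opposite directions. Cd86, on chromosome 16 from 36603869 to 36666081, averaged 8.77 ± 1.32 CPM under PBS (lowest 7.51, median 8.26, highest 11) against 6.46 ± 1.8 CPM under anti-CD4 (lowest 4.81, median 5.85, highest 9.27), as mean ± SD, n = 6 each. Its log2 fold change was -0.44 (SE 0.167, edgeR adjusted p = 0.11). Cd80, on the same chromosome from 38455561 to 38496335, was at 13.4, 15.2, 16, 13.2, 11.8 and 15.4 CPM in PBS tumours 1 to 6. Under anti-CD4, tumours 1 to 6 were at 13.6, 17.9, 17.2, 16.1, 17 and 15.4 CPM. Anti-CD4 2, 3, 4 and 5 were above every PBS tumour, and the other 2 were inside the PBS range. The log2 fold change of Cd80 was 0.19 (SE 0.0889, edgeR adjusted p = 0.175), so neither ligand passed. Per kilobase of exon, the ratio of Cd80 to Cd86 was 1.36 to 1.97 in PBS tumours and 1.71 to 3.34 in anti-CD4 tumours. In 5 of 6 anti-CD4 tumours it was above every PBS tumour, anti-CD4 4 being the exception. Cd80 was not low in anti-CD4 5 and 6, which were the lowest of all 12 tumours in Cd86, Cd274 and Pdcd1lg2.

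Icosl, the ICOS ligand gene on chromosome 10 from 78069302 to 78083913, was at 9.89, 12.4, 9.7, 11, 10.1 and 14.6 CPM in PBS tumours 1 to 6. The anti-CD4 tumours 1 to 6 were at 10.3, 6.03, 8.39, 9.35, 6.35 and 5.8 CPM. Anti-CD4 1 was inside the PBS range and the other 5 were below it. Its log2 fold change of -0.55 (SE 0.157, 95% interval -0.89 to -0.22) missed the threshold narrowly (edgeR adjusted p = 0.054). DESeq2 called it (adjusted p = 0.0107), as did edgeR on counts thinned to the lowest total (adjusted p = 0.0477) and edgeR without PBS 1 (0.0311) or anti-CD4 1 (0.0198). Anti-CD4 1 was its highest anti-CD4 tumour. Of the 22 alternative fits only 6 called Icosl, and with the library total in the model the edgeR adjusted p was 0.443. The difference between the changes of receptor and ligand was not tested. Per kilobase, Icos stood at 0.444 to 0.939 of Icosl in PBS tumours and at 0.0711 to 0.395 of it in anti-CD4 tumours, without overlap.

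The ligands of PD-1 are encoded side by side on chromosome 19, with no other annotated gene in the 22.8 kb between them, and they differed in how the tumours varied. Cd274 lies from 29367455 to 29388095 and Pdcd1lg2 from 29410919 to 29471161, both on the plus strand and each overlapped by an antisense gene (AC119228.1 and A930007I19Rik). The strand setting of the counting was not given in the sources used here. In GENCODE transcripts, 14.6% of the 31-base words of Cd274 also occur in a transcript of another gene on either strand, so some of its reads could be shared, and none of those of Pdcd1lg2 do. Interferon gamma is the best known inducer of PD-L1, acting through interferon regulatory factors (IRF). The 250 bases before the RefSeq start of Cd274 (chr19:29367188-29367437), Pdcd1lg2 (chr19:29410669-29410918) and, for the receptor, Pdcd1 (chr1:94052554-94052803, minus strand, printed 5′ to 3′ on the gene's strand) are shown because each holds a match to the IRF core AANNGAAA on the opposite strand, marked in capitals (GRCm38.p6, from RefSeq).
Cd274: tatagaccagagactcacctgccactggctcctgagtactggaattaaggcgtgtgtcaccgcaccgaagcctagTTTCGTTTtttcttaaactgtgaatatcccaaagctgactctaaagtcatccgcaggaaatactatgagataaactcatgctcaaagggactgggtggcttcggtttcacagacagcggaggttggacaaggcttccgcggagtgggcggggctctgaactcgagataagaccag
Pdcd1lg2: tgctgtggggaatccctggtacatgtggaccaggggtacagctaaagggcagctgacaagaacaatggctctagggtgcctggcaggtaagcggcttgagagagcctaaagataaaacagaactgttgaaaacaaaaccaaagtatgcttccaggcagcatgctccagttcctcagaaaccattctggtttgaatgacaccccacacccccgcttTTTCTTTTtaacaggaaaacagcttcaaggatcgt
Pdcd1: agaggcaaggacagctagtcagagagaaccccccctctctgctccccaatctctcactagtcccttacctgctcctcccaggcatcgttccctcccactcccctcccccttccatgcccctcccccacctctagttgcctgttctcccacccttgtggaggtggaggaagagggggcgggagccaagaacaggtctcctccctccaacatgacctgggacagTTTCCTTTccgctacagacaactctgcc
The first base of the match lies 175 bases before the start in Cd274, 35 in Pdcd1lg2 and 28 in Pdcd1. Of the 10 genes, 7 had a promoter in the table (not Cd28, Icos and Cd86), and Ctla4, Btla, Cd80 and Icosl had no such match in this window. Searched on both strands, the IRF core was present in 21.3% of all 32851 promoters, so a match in such a window is common. The gamma-activated site TTCNNNGAA (7.02% of promoters) was in none of the 7, and the AP-1 motif TGANTCA (6.75%) was in Cd80 alone.

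Cd274 was at 12.2, 19.9, 16.1, 12.1, 18.6 and 22.3 CPM in PBS tumours 1 to 6. Under anti-CD4, tumours 1 to 6 were at 8.04, 7.87, 29, 16.1, 5.29 and 4.21 CPM. Anti-CD4 3 had the highest level of all 12 tumours, anti-CD4 4 was inside the PBS range, and the other 4 were below every PBS tumour. The log2 fold change over all tumours was -0.53 (SE 0.438, 95% interval -1.49 to 0.44, edgeR adjusted p = 0.447), so Cd274 did not pass. Without anti-CD4 3 it was -1.02 (adjusted p = 0.0803), and without anti-CD4 3 and 4 together -1.41 (SE 0.23, adjusted p = 0.00738). Those tumours had the highest Cd274 levels of their group, so leaving them out must lower the value. These fits describe the other tumours and are not a test of the treatment. Once the library total entered the model, the log2 fold change over all tumours was -0.08 (SE 0.528). Ifng, the interferon gamma gene, was at 0.269 and 0.318 CPM in anti-CD4 3 and 4, at 0.017 to 0.0864 CPM in the other anti-CD4 tumours and at 0.0871 to 0.734 CPM in PBS tumours. The lowest of these values, in both groups, rest on only a few reads each at these library totals, so differences among them are uncertain. The part of Ifng in the Cd274 values was not tested.

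Pdcd1lg2 had the lowest fold change of the ligands and the widest spread. It was at 1.69, 8.38, 2.22, 2.41, 1.34 and 2.63 CPM in PBS tumours 1 to 6, so PBS 2 was far above the others. In anti-CD4 tumours 1 to 6 it was at 0.634, 0.29, 1.56, 1.17, 0.149 and 0.136 CPM. Only anti-CD4 3 was inside the PBS range and the other 5 were below it. The log2 fold change was -2.26 (SE 0.648, 95% interval -3.67 to -0.85, edgeR adjusted p = 0.059), and it did not pass. Without PBS 2 it was -1.67 (adjusted p = 0.0913), and it passed without PBS 1 (-2.4, adjusted p = 0.0408), without anti-CD4 3 (-2.72, adjusted p = 0.0461) and in DESeq2 (-2.24, adjusted p = 0.0131). Of the 22 alternative fits only 5 called Pdcd1lg2, and with the library total in the model the edgeR adjusted p was 0.438. Counts were low in the anti-CD4 group, from 7 to 59 per tumour, and the lowest count of 7 has an exact 95% Poisson interval of 2.81 to 14.4, which covers counting error only. Per kilobase, the log2 ratio of Cd274 to Pdcd1lg2 averaged 1.78 ± 0.839 under PBS against 3.33 ± 0.483 under anti-CD4 (SD, n = 6 each), and 4 anti-CD4 tumours were above every PBS tumour. The log2 ratio of Pdcd1 to Cd274, by contrast, was -2.46 ± 0.429 and -2.56 ± 0.467 (SD, n = 6 each), and the groups overlapped. That of Pdcd1 to Pdcd1lg2 averaged -0.68 ± 1.03 under PBS against 0.77 ± 0.647 under anti-CD4 (SD, n = 6 each). It was above every PBS tumour in 4 anti-CD4 tumours.

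As a set, receptors differed between the groups by more than ligands. The mean log2 CPM of the 4 tested receptors averaged 1.97 ± 0.438 under PBS against 0.49 ± 0.912 under anti-CD4, and that of the 5 ligands was 3.17 ± 0.313 and 2.37 ± 0.593 (SD, n = 6 each). The receptor mean minus the ligand mean was -1.2 ± 0.403 in PBS tumours (from -1.64 to -0.68) and -1.87 ± 0.4 in anti-CD4 tumours (from -2.23 to -1.16). In 5 of 6 anti-CD4 tumours it was below every PBS tumour, anti-CD4 4 being the exception. The shift of -0.67 ran from -0.81 to -0.56 when a tumour was left out. It is a description without a test, since the members were chosen with results of these data known. It does not hold for every gene. Pdcd1lg2 (-2.26) had as low a log2 fold change as Icos (-2.25) and a lower one than Cd28, Pdcd1 and Btla. The values of Pdcd1 and Btla were close to those of Icosl and Cd274.

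Compared per length, 4 of the 5 ligands had a mean above that of every receptor in both groups, the exception being Pdcd1lg2. In PBS tumours Cd274 was highest at 4.65 ± 1.15 CPM per kilobase of merged exons, followed by Cd80 at 3.83 ± 0.437, Icosl at 2.44 ± 0.408 and Cd86 at 2.4 ± 0.361 (SD, n = 6 each). Btla, the highest receptor, followed at 2.18 ± 0.617, then Icos at 1.67 ± 0.608, Pdcd1lg2 at 1.59 ± 1.34, Pdcd1 at 0.838 ± 0.301 and Cd28 at 0.629 ± 0.227. Of these neighbours, only Cd80 and Icosl differed by more than the larger of their SDs. In anti-CD4 tumours Cd80 came first at 4.37 ± 0.413 and Cd274 next at 3.24 ± 2.6, a difference within the SD of Cd274. Icos moved from the sixth place to the seventh, at 0.351 ± 0.287 CPM per kilobase, below Pdcd1 at 0.514 ± 0.396. Pdcd1 was the higher in all 6 anti-CD4 tumours, though the means differed by less than the SD. With the length of the longest coding transcript in place of merged exons, Pdcd1lg2 was above Icos and Cd28 above Pdcd1 in PBS tumours, so the order of these lower genes depends on the length used.

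**Figure D3:**
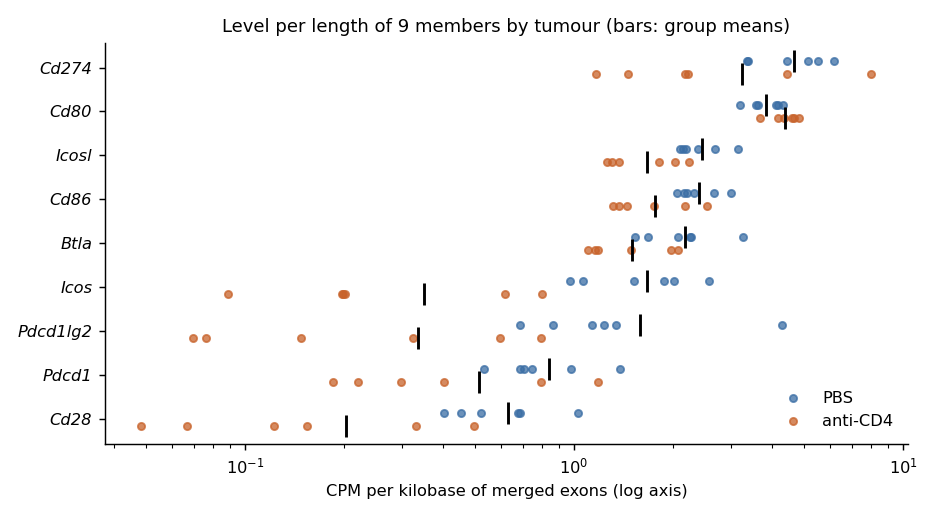
CPM per kilobase of merged exons (log axis) in each PBS (blue) and anti-CD4 (orange) tumour for 9 members, ordered by the PBS mean, with black bars for group means. The anti-CD4 points of Icos, Pdcd1lg2, Pdcd1 and Cd28 spread below the PBS points, and those of Cd80 overlap its PBS points, with a higher mean.

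The receptors are T cell genes in the main, although BTLA is also carried by other lymphocytes and by dendritic cells. The CD3 chain genes, which mark all T cells, had lower values in the anti-CD4 tumours as well. Log2 fold changes were -0.82 for Cd3d, -1.28 for Cd3e and -0.92 for Cd3g, and none passed (edgeR adjusted p = 0.119, 0.128 and 0.204). Each receptor was therefore also set beside the mean log2 CPM of the 3 chains in the same tumour. This scale is not per length, so only the shift between groups is read. The size of a shift also depends on the CD3 chains as reference. Over the 10 T cell markers, log2 fold changes ran from -2.18 to -0.75, with a median of -1.02. Beside the lowest of them, Cd5 (-2.18), Icos (-2.25) would hardly shift. For Btla the scale gives no level per T cell, since other cells carry BTLA too. Beside CD3, Icos ranged from -1.22 to -0.22 under anti-CD4 and from 0.43 to 1.25 under PBS, without overlap and with a shift of -1.28. Cd28 shifted by -0.74 and lay below every PBS tumour in 5 of 6 anti-CD4 tumours. Pdcd1 shifted by 0.29 with overlap, from -1.03 ± 0.338 to -0.73 ± 0.519, and Btla by 0.67, from 1.16 ± 0.26 to 1.82 ± 0.651 (SD, n = 6 each), with 4 anti-CD4 tumours above every PBS tumour. On this scale anti-CD4 3 and 4 were no longer the highest of their group in Cd28, Pdcd1 and Btla, and in Btla they were the lowest, at 1.41 and 1. In Icos, anti-CD4 3 remained the highest of its group, at -0.22. Both tumours had been set apart by Cd3e, which enters this scale, so their lower place on it follows in part from that choice. The ligands were set beside the mean of the macrophage genes Csf1r, Adgre1 and Cd68, which shifted by -0.1 between the groups. On that scale Cd80 shifted by 0.3, Cd86 by -0.37, Icosl by -0.47, Cd274 by -0.71 and Pdcd1lg2 by -2.26. The sizes of these shifts depend on the reference genes. All 10 macrophage markers had a median log2 fold change of -0.3 (from -0.52 to 0.23), lower than the shift of the reference mean.

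**Figure D4:**
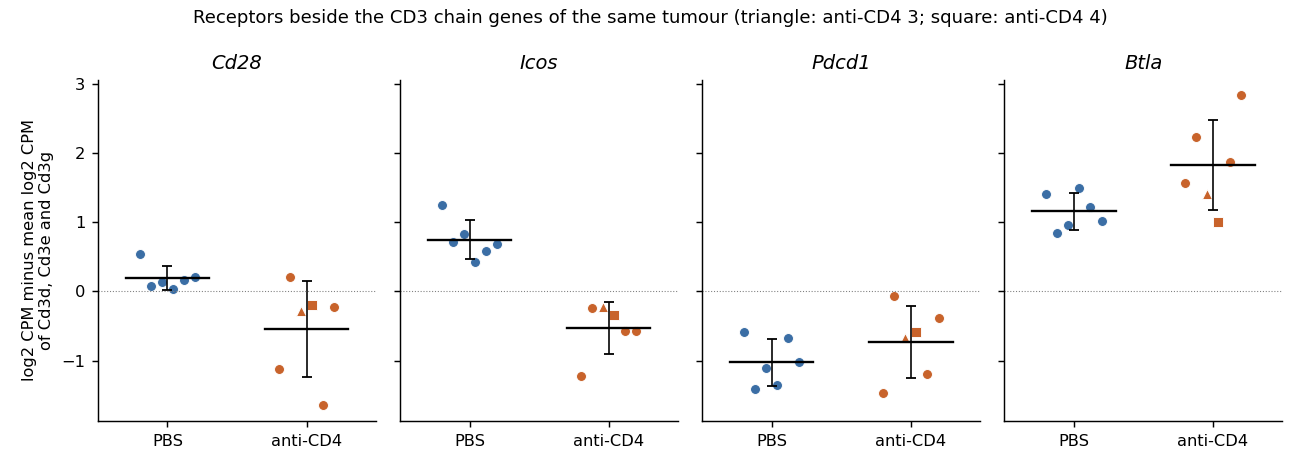
Log2 CPM of each tested receptor minus the mean log2 CPM of Cd3d, Cd3e and Cd3g (vertical axis) in PBS (blue) and anti-CD4 (orange) tumours, with means and SD; triangles mark anti-CD4 3 and squares anti-CD4 4. Icos lies lower without overlap, Pdcd1 overlaps, and 4 anti-CD4 tumours lie above the PBS tumours in Btla.

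Markers of the cells that can carry these genes differed by cell type in how many were called. The 8 regulatory T cell markers were all called lower, with a median log2 fold change of -1.76, among them Ccr8 (-3.32), Izumo1r (-2.76), Tnfrsf4 (-1.91) and Il2ra (-1.89). Their summed level was 41 to 68 CPM in PBS tumours and 12.6 to 24 CPM in anti-CD4 tumours. Of 10 T cell markers, 2 were called lower, Cd5 (-2.18) and Cd2 (-1.64), and the median was -1.02 (summed level 26.7 to 59.7 and 5.66 to 32.7 CPM). Among 9 markers of mature dendritic cells, the cells richest in CD80 and CD86, 5 were called lower, with Il12b (-1.81), Ccr7 (-1.79), Ccl22 (-1.67) and Il4i1 (-1.28) first by p (median -0.74, summed level 195 to 243 and 162 to 184 CPM). Most of this sum came from Fscn1 (mean 101 CPM under PBS and 92.5 under anti-CD4) and Relb (53.8 and 47.2), neither of them called. Conventional dendritic cells had 2 of 7 markers called lower, Flt3 (-0.8) and Zbtb46 (-0.69), with a summed level of 36.4 to 65.4 and 22.5 to 42.2 CPM. Of 6 markers of plasmacytoid dendritic cells, Klk1 (-2.15), Siglech (-1.41) and Ccr9 (-0.67) were called lower and Tcf4, a gene of many cell types, higher (0.23), and the summed level was 362 to 409 and 416 to 476 CPM. Tcf4 made up most of that sum, and without it the other 5 markers summed to 11.5 to 22.3 CPM under PBS and 6.2 to 9.11 CPM under anti-CD4. edgeR called none of 5 tested CD8 T cell, 5 B cell, 10 macrophage or 6 blood endothelial markers, and the smallest p in each belonged to Prf1 (-1.18), Ms4a1 (-0.4), C1qb (-0.52) and Egfl7 (-0.15). At an unadjusted p under 0.05 these lists had 1, 0, 3 and 0 markers, DESeq2 called 0, 0, 2 and 0, and limma voom 3, 0, 0 and 1, all lower. Over all genes edgeR called 2.33% lower and 2.95% higher, DESeq2 6.66% and 7.57%, and limma voom 17.7% and 15.7%. Prf1 was the lowest of the 5 tested CD8 T cell markers, whose median log2 fold change was -0.65 (from -1.18 to 0.18). The CD8 coreceptor genes Cd8a and Cd8b1 were at -0.15 (SE 0.342) and 0.18 (SE 0.507). The summed levels of the CD8 T cell, B cell and macrophage lists in PBS and anti-CD4 tumours were 9.28 to 27.1 and 3.55 to 22.7 CPM for CD8 T cells, 7.59 to 10.7 and 7.48 to 9.39 CPM for B cells, and 966 to 2000 and 982 to 1220 CPM for macrophages. No marker of any list was at 0 in all tumours. Connective tissue and mesothelial markers were called higher in 2 of 7 fibroblast genes, Lum (0.83) and Pdgfra (0.28), and in Pdpn (0.33), 1 of 4 tested. The part of these cell types in the values of the receptors and ligands was not tested.

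The genes that act behind the receptors were lower in part. The tails of CD28 and ICOS recruit phosphoinositide 3-kinase and adaptors that join antigen receptor signalling. Of 20 genes of this signalling, 4 were called lower and none higher, with a median log2 fold change of -0.35. Over all genes tested, edgeR called 2.33% lower and 2.95% higher. Among them were Carmil2, whose product binds CD28 signalling complexes (-1.13, SE 0.189), Zap70, the kinase of the T cell receptor (-1.47, SE 0.374), and Vav1, an exchange factor (-0.44, SE 0.11). Of 12 phosphatases and negative regulators of antigen receptor signalling, 3 were called lower, namely Ubash3a (-0.61), the adaptor gene Sla2 (-1) and Inpp5d, the SHIP1 phosphatase (-0.33), with a median of -0.2. Ptpn6 and Ptpn11, the phosphatases bound by PD-1 and BTLA, were not among the genes called. edgeR called none of 12 transcription factors of PD-1 and ICOS expressing T cells, where 6 were lower at an unadjusted p under 0.05 (14.7% of all genes were), 3 in DESeq2 and 4 in limma voom. Eomes had the smallest p (-1.23, SE 0.341, edgeR adjusted p = 0.0519).

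In the lists nearer to the ligands edgeR called no gene, and their counts at an unadjusted p under 0.05 are to be read against the 28% of all genes that reached it. Of 15 genes of PD-L1 induction and stability, 3 were lower and 1 higher at an unadjusted p under 0.05, DESeq2 called 1 higher, limma voom 3 lower and 1 higher, and the median log2 fold change was -0.06. That count of 4 of 15 is near the share over all genes. Jak1, the kinase of interferon receptors, had the smallest p (0.19, SE 0.0608, edgeR adjusted p = 0.0756). Ifng, a gene of few reads here, was at -1.71 (SE 0.62, edgeR adjusted p = 0.099). Cmtm6, which keeps PD-L1 at the cell surface, was at -0.06. Of 6 genes of CTLA-4 trafficking, 1 was lower and 1 higher at an unadjusted p under 0.05, DESeq2 called 1 higher and limma voom 1 lower and 3 higher, with Rab11a first by p (0.16, edgeR adjusted p = 0.0851). Of 10 other B7 family and partner genes, 8 were tested (not Vtcn1 and Btn2a2), with 3 lower and 1 higher at an unadjusted p under 0.05, 1 higher in DESeq2, and 3 lower and 1 higher in limma voom. Cd276, the B7-H3 gene, averaged 71.5 ± 8.92 CPM under PBS against 84.3 ± 6.3 CPM under anti-CD4 (SD, n = 6 each). Its difference of 0.24 (SE 0.078) gave an edgeR adjusted p of 0.0775. Tnfrsf14, the HVEM gene that pairs with Btla, was at -0.45 (SE 0.178, edgeR adjusted p = 0.125), close to the -0.55 of Btla, and their log2 ratio per length was -2.97 ± 0.332 and -3.04 ± 0.152 in the 2 groups (SD, n = 6 each).

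The genes most like each member across the 12 tumours differed between members. Likeness was the root mean square difference of standardised log2 CPM over 14108 protein-coding genes, where 0 is the same pattern. Nearest to Icos were Agap2 (0.175), Zap70 (0.184) and Stat4 (0.185), each called lower themselves. Cd274 was nearest to Gbp4 (0.197), Gbp10 (0.198) and Gbp5 (0.212), genes of guanylate-binding proteins, whose family members share sequence so that their counts are uncertain. Around Cd28 were Bcl2a1b (0.197), Il18r1 (0.213) and Ltb (0.218), and around Pdcd1 Slfn2 (0.219), Itgal (0.226) and Ltb (0.227). Among the ligands, Cd86 was nearest to Mapkapk3 (0.19), Sorl1 (0.193) and Nabp1 (0.21), Pdcd1lg2 to Nabp1 (0.2), Stx11 (0.223) and Jaml (0.226), and Icosl to Gpr157 (0.214), Ikbkb (0.216) and Rab11fip4 (0.226). Btla had Wdfy4 (0.271), Nbeal2 (0.288) and Fgd2 (0.288). Cd80 had no neighbour as close, the nearest being Zfp72 (0.375). Within the family, the most alike pairs were Cd28 and Icos (0.288) and Cd86 and Pdcd1lg2 (0.294). These values include the difference between the groups and carry no test.

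The number of members called depended on anti-CD4 3 and 4. Anti-CD4 4 was the highest anti-CD4 tumour in 5 of the 9 tested members and anti-CD4 3 in 2, while PBS 6 was the highest PBS tumour in 6. Without both anti-CD4 3 and 4, edgeR called 8 of the 9 members lower, all but Cd80, in a fit where 3.86% of genes were called lower and 2.07% higher. Log2 fold changes were then -3.3 for Icos, -2.7 for Cd28, -1.61 for Pdcd1, -0.82 for Btla, -0.7 for Cd86, -0.67 for Icosl, -1.41 for Cd274 and -3.42 for Pdcd1lg2, with adjusted p from 0.000593 (Icos) to 0.0424 (Icosl). Those tumours were singled out because lymphocyte genes were high in them, so this count is a description of the other tumours and not a test of the treatment. Cd80 was at 0.17 in that fit (SE 0.106, adjusted p = 0.301).

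**Figure D5:**
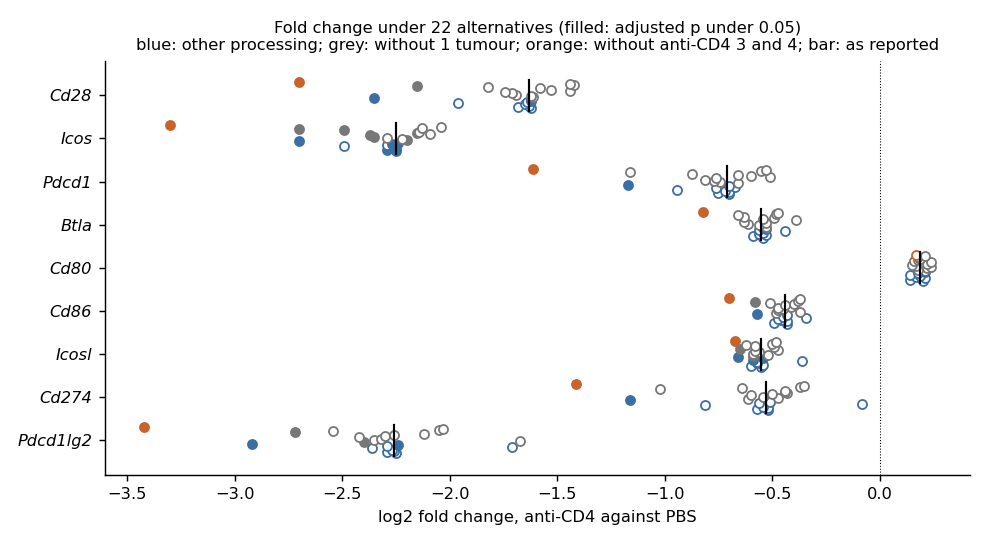
Log2 fold change of the 9 tested members under 22 alternatives (blue, other processing; grey, without 1 tumour; orange, without anti-CD4 3 and 4), filled where the adjusted p was under 0.05, with a black bar at the reported value. No point crosses 0, the orange points lie lowest in 8 members, and Cd80 has no filled point.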

How the data were processed

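Per the labels' protocols, tumour RNA, with ribosomal and globin transcripts removed, was read in pairs on a NovaSeq. The submitters' processing notes name bcl2fastq 2.20.0.422, kallisto and GRCm38.p6. Values in the deposited table are estimated counts for each gene symbol, of which 35.7% to 37.9% per tumour were not whole. The annotation release, the step from transcripts to genes and the strand setting were not given in the sources used here. kallisto shares reads among similar transcripts, so counts of related genes can be split. In the table, 26 rows had names turned into dates (0.227% of counts).

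Counts were rounded, filtered with filterByExpr of edgeR 4.0.16 (R 4.3.3), scaled by TMM and tested across 17940 genes with the quasi-likelihood F test, 6 tumours against 6, with no covariate. Calls needed an adjusted p (Benjamini-Hochberg, over all genes) under 0.05. SEs are approximate, from the log2 fold change and its F value. Log2 CPM used a prior count of 2. Coordinates, exon lengths and 31-base words shared on either strand come from GENCODE M21 (GRCm38), which need not be the authors' annotation. The fit was also run on simulated counts with known changes, and the outcome is not reported here. Tumours of a group were checked for repeated libraries, and chi-square per degree of freedom was 8.01 to 61.1 over 30 pairs. The members and all 17 lists were chosen with earlier results of these data known. Text names all members, up to 4 called genes per list by p or else the first, the reference genes Cd3d, Cd3e, Cd3g, Csf1r, Adgre1, Cd68 and Ifng, and the 3 nearest genes per member. Some genes that this rule names are not reported here. Cd4, Ptprc, Cd8a, Cd8b1, Msln, Tnfrsf14, Cmtm6, Ptpn6 and Ptpn11 were named outside that rule, after their values were seen, as were the motifs. Alternatives were other scalings (RLE, upper quartile), DESeq2 1.42.0, limma 3.58.1 (voom with sample weights), other filters, a replicate block, the library total as a covariate, thinning and leaving out tumours.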

Additional observations from a re-analysis of the deposited data

Results flagged for a closer look

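Pdcd1lg2 in PBS 2 was at 8.38 CPM, and the next highest PBS tumour, PBS 6, was at 2.63 CPM. The gap was 0.816 of the range of the 6 PBS tumours, above the 95% critical value of Dixon's test for 6 values. It was the 1 such value among 19 combinations of member and group, and chance flags about 1 in 20. In the same tumour Cd86 was also the highest of the PBS group, at 11 CPM, without such a gap.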

How the results depend on the processing

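All 9 tested members kept the sign of their log2 fold change under the 22 alternatives, and Cd80 was called under none. The number called lower was 1 as reported and also with RLE or upper quartile scaling or a stricter filter. It was 2 with no filter (Icos and Ctla4), 2 on thinned counts (Icos and Icosl), 4 with DESeq2, and 8 with limma voom and sample weights or without anti-CD4 3 and 4 together. It was 0 with the library total as a covariate (Icos -2.29, adjusted p = 0.248; edgeR gave 2193 genes an unadjusted p under 0.05) and 0 to 3 without a tumour. Members called higher numbered 0 in every fit. Over all genes, 418 were lower and 529 higher as reported, against 251 and 272 with no filter, 5 and 0 with the library total as a covariate, 1187 and 1349 with DESeq2, 3169 and 2809 with limma voom, 31 to 1480 and 29 to 1160 without a tumour, and 705 and 378 without anti-CD4 3 and 4. With upper quartile scaling 179 were higher, and these made up 35.5% of calls against 55.9% with TMM. With a replicate block 0 members were called (Icos -2.49, adjusted p = 0.0977), and 14 genes were lower and 19 higher. The numbers pair no animals in the labels. Correlations of deviations of same-numbered tumours ran from -0.409 to 0.229, 2 of 6 were over 0.1, and 0 of 6 PBS tumours were closest to the anti-CD4 tumour of their number. The shift of receptors against ligands was -0.68 with a prior count of 0.5, -0.7 with all 10 members, -0.81 to -0.56 without a tumour and -0.88 without anti-CD4 3 and 4. The cause of these changes was not tested, beyond the fewer tumours or other genes that each fit holds. Low counts kept Ctla4 out of the test, and the lowest count per tumour was 7 for Pdcd1lg2, 14.36 for Cd28, 18 for Icos and 20 for Pdcd1.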
